A study of Caenorhabditis elegans with 12 samples.

Results

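Dietary restriction (DR) was set against full feeding (ad libitum, AL) in sek-1(km4) mutants of the nematode Caenorhabditis elegans, with 3 libraries of whole adults on DR and 3 on AL. These are the 6 libraries that the labels assign to the strain sek-1(km4), out of 12 in the series, and they were fitted alone, so that the spread of the wild-type N2 libraries did not enter the test. The km4 allele is a deletion in sek-1. Worms of the DR group were fed the Escherichia coli strain OP50 at an optical density of 0.1, and worms of the AL group at an optical density of 3. All else that the labels record was shared by both groups. Synchronised animals were raised at 20 °C and moved as L4 larvae or young adults to agar with antibiotics and 100 mg/L of fluorodeoxyuridine (FUdR), an inhibitor of DNA synthesis that keeps adults from producing progeny. On adult day 3 they went into 1 ml of liquid with cold-arrested and antibiotic-arrested bacteria, at 10 to 20 worms per well, and after 3 days on the diet they were frozen as day 6 adults. Poly(A) RNA was sequenced as 50 bp single reads. The labels name biological replicates 1 to 3 in each group and do not say how many wells entered a library. The 6 N2 libraries, 3 on DR and 3 on AL under the same conditions, are used only in the last comparison below.

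In the worm, SEK-1 is a MAP kinase kinase that acts in innate immunity through p38. In that pathway the adaptor TIR-1 and the kinase NSY-1 act above SEK-1, and SEK-1 activates the p38 kinase PMK-1, which drives antimicrobial and other effector genes, largely in the intestine. DR prolongs life in the worm, and the response to scarce food is known to draw on fat stores, to lower yolk and egg production and to shift nutrient-sensing regulators such as AMP-activated kinase, CREB coactivators and nuclear hormone receptors. The comparison asks which transcripts the change of diet moved in animals without SEK-1.

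Total counts were 24422622, 22516184 and 17704397 in DR replicates 1 to 3, and 27860858, 23930332 and 19538479 in AL replicates 1 to 3. Ribosomal RNA took 32.6% to 44.996% of the counts in the DR libraries, highest in DR replicate 3, and 35.9% to 36.5% in the AL libraries. Levels are given as CPM, counts relative to library size after TMM scaling over the 6 libraries, and a count of 3, taken as the limit that a count of 0 allows, stood for 0.120 to 0.184 CPM in DR libraries and 0.118 to 0.144 CPM in AL libraries. Such limits cover counting error only. The first principal component of 5000 genes held 57.4% of the variance and placed the DR libraries at 6.57, 27.015 and 42.6 and the AL libraries at −38.9, −29.4 and −7.87. DR replicate 1 and AL replicate 3 were the neighbours across the gap between the groups. No 2 libraries held identical counts.

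The sek-1 gene itself (chromosome X, 7816734 to 7821036 in the WBcel235 assembly of the Ensembl annotation, whose coordinates are used throughout) stood at 24.9, 24.1 and 23.6 CPM on DR and 20.9, 17.9 and 19.5 CPM on AL. The groups did not overlap, but the difference did not pass (edgeR adjusted p = 0.0584), with a log2 fold change of 0.32 ± 0.10. Fold changes below are log2 values of DR over AL with their standard errors, from 3 libraries in each group. Because exons outside a deletion are counted too, the value checks neither the allele nor the labels.

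Of 14056 genes tested, 995 were higher and 1166 were lower on DR at an adjusted p under 0.05 in edgeR's quasi-likelihood test, that is 7.08% and 8.3% of the genes tested and 15.4% in all. At least a 2-fold change was reached by 235 of the genes that rose and 175 of those that fell, and the median absolute log2 fold change of the genes that passed was 0.575. The groups did not overlap for 2149 of the 2161 genes that passed and for 37.1% of all genes tested, and the median log2 fold change of all genes was 0.03. In a bulk sample of whole animals, fewer cells of a type and less RNA per cell cannot be told apart, which holds for every tissue-bound gene below. DESeq2 called 17.2% and limma voom 15.9% of the genes tested. The counts turned on single libraries. With 1 library left out, 70 genes (0.49%) passed without DR replicate 2, 182 (1.26%) without AL replicate 2, 335 (2.29%) without AL replicate 1, 963 (6.7%) without DR replicate 3, 2214 (15.3%) without DR replicate 1 and 3940 (27.3%) without AL replicate 3. Of the 203 genes named by the rule that passed, 30 passed in all 6 leave-out fits, and 172 did not pass without DR replicate 2, 155 without AL replicate 2, 134 without AL replicate 1, 75 without DR replicate 3, 34 without DR replicate 1 and 9 without AL replicate 3. Of the 2161 genes, 69 passed in all 6 of these fits, 36 higher and 33 lower. The sign was kept in all 6 fits by 2160. Where the groups do not overlap, leaving out 1 library can hardly reverse a sign, so the kept signs add no support. Long and short transcripts were not called alike. In the quartile with the shortest exon length 125 genes were higher and 283 lower, and in the quartile with the longest 421 were higher and 116 lower. Genes that were higher made up 46% of those that passed, and 34.3% of the 3032 (21.7%) that passed with offsets for exon length.

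**Figure D1:**
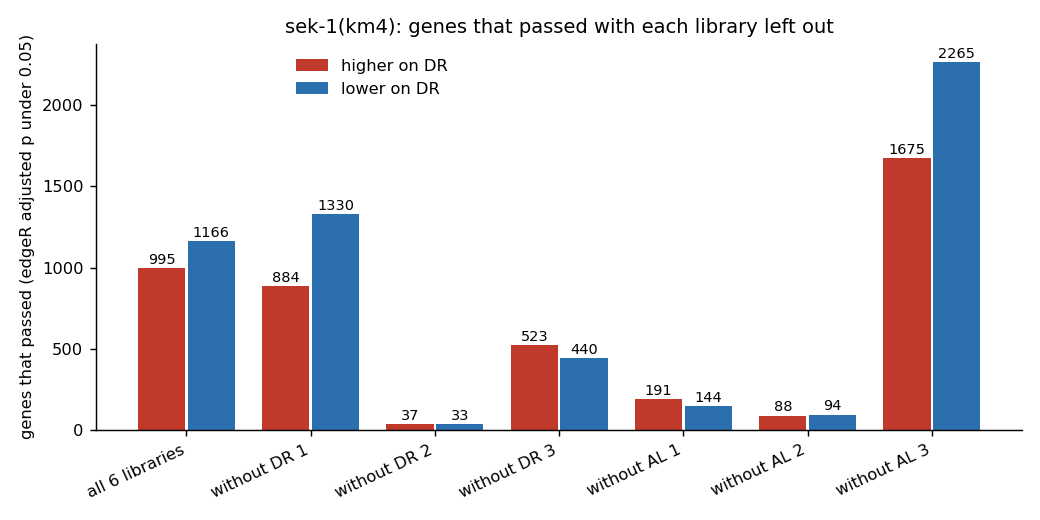
Genes that passed edgeR's test at an adjusted p under 0.05 with all 6 libraries and with each library left out in turn (x axis), counted on the y axis as higher (red) or lower (blue) on DR in sek-1(km4). The counts run from 37 higher and 33 lower without DR replicate 2 to 1675 higher and 2265 lower without AL replicate 3.

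Among genes averaging 5 CPM or more whose DR and AL libraries stood apart, the largest rise was that of cpr-2, which encodes a cathepsin B-like cysteine protease (chromosome V, 16532936 to 16534100). It stood at 67.9, 92.2 and 132.5 CPM on DR and 2.16, 1.68 and 3.27 CPM on AL. Every DR library was more than an order of magnitude above every AL library (5.37 ± 0.34, edgeR adjusted p = 0.00109). The water and glycerol channel gene aqp-1 (chromosome II, 7235828 to 7238349) had 60.03, 67.3 and 59.5 CPM on DR and 14.9, 14.5 and 19.4 CPM on AL (1.94 ± 0.13, edgeR adjusted p = 0.000341). Acs-2, an acyl-CoA synthetase gene known as a fasting-induced step of mitochondrial fat oxidation (chromosome V, 15567394 to 15569897), had 325.8, 288 and 208 CPM on DR and 107.7, 82.9 and 82.0 CPM on AL (1.59 ± 0.17, edgeR adjusted p = 0.00263). All 3 genes passed with any 1 library left out.

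Further genes of this rank were adh-1, for an alcohol dehydrogenase, at 231, 200.4 and 158 CPM on DR and 67.2, 61.8 and 70.7 CPM on AL (1.56 ± 0.14, edgeR adjusted p = 0.000888), and the long noncoding RNA tts-1, the most abundant of them, at 623, 789 and 1011 CPM on DR and 194, 198 and 368.5 CPM on AL (1.67 ± 0.29, adjusted p = 0.0145). The highest AL library of tts-1 was AL replicate 3, and that all DR libraries lay above it was a condition of this ranking. Far-7, of the family that binds fatty acids and retinol, rose (2.17 ± 0.31), as did the F-box genes fbxa-163 (1.63 ± 0.13) and fbxa-24 (1.57 ± 0.23) and hrg-7, for a secreted protease of heme signalling (2.21 ± 0.43). Y43C5A.3 (2.12), T22F3.11 (2.00), T05E12.3 (1.78), F21C10.10 (1.62), Y53F4B.45 (1.58) and F13A2.2 (1.54) complete the 15 largest rises. Adh-1, T22F3.11, T05E12.3, fbxa-163 and F21C10.10 also passed with any 1 library left out. Tts-1, hrg-7, far-7, fbxa-24, Y43C5A.3, Y53F4B.45 and F13A2.2 lost their calls without DR replicate 2, and all of these but far-7 and fbxa-24 also without AL replicate 1 or 2 (for tts-1, edgeR adjusted p up to 0.0729). Adh-1 overlaps sodh-2, aqp-1 overlaps ctsa-3.1, hrg-7 overlaps C15C8.7 and F21C10.10 overlaps F21C10.9 in the annotation, and since the strand setting of the counts is not given, reads of such pairs may be assigned to either gene.

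**Figure D2:**
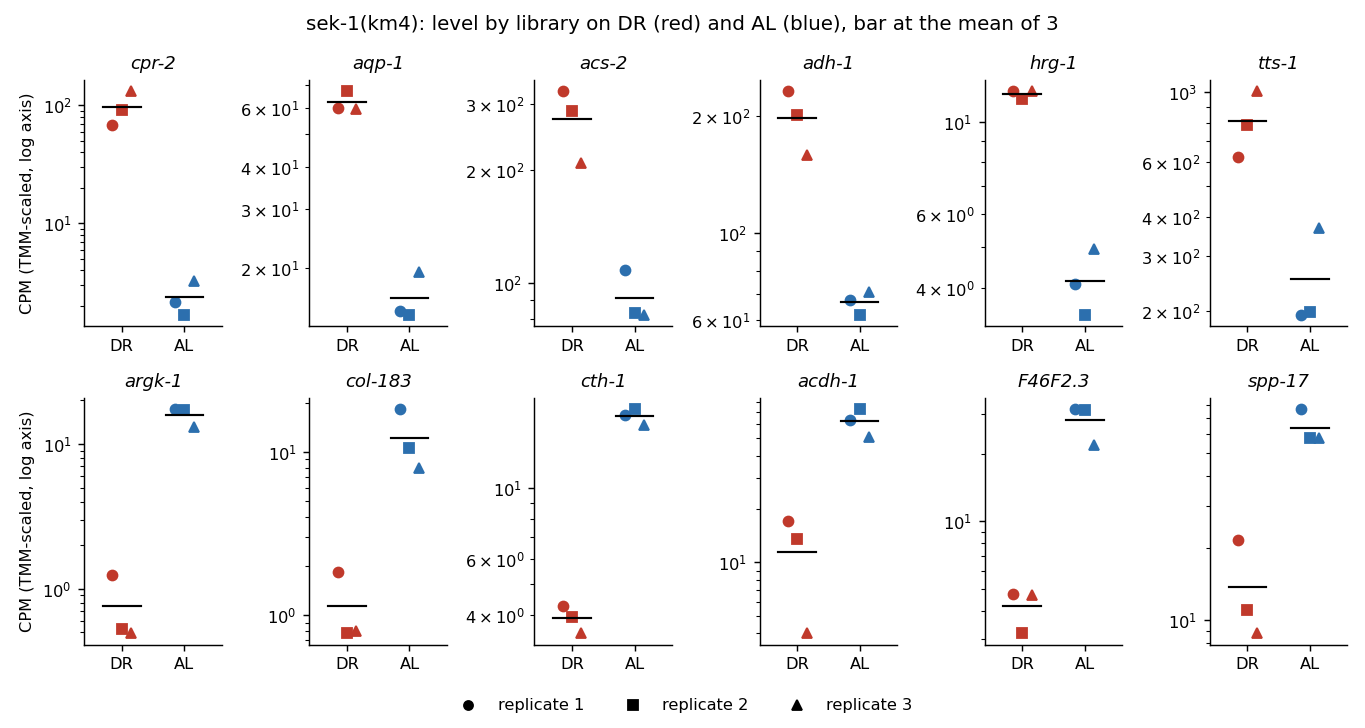
Level of 12 genes in each library of sek-1(km4) worms on DR (red, left) and AL (blue, right), as TMM-scaled CPM on a log axis, with 1 symbol per replicate and a bar at the mean of 3 libraries. The groups do not overlap for any of the 12, from cpr-2 (67.9 to 132.5 CPM on DR, 1.68 to 3.27 CPM on AL) to argk-1 (0.491 to 1.24 CPM on DR, 13.1 to 17.3 CPM on AL). For all but hrg-1 and cth-1 this was a condition of the ranking that named them, and 37.1% of all genes tested met it.

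Among genes that fell, argk-1, for an arginine kinase that buffers ATP (chromosome V, 16103894 to 16105952), changed most, with 1.24, 0.529 and 0.491 CPM on DR and 17.3, 17.1 and 13.1 CPM on AL (−4.34 ± 0.30, edgeR adjusted p = 0.000341). The uncharacterised gene F46F2.3 (chromosome X, 15259579 to 15260287) had 4.74, 3.17 and 4.72 CPM on DR and 31.4, 31.2 and 21.9 CPM on AL (−2.75 ± 0.20, edgeR adjusted p = 0.000366). Far-3, of the same family as far-7, had 1.93, 2.28 and 4.66 CPM on DR and 19.8, 17.7 and 23.1 CPM on AL (−2.82 ± 0.29, edgeR adjusted p = 0.0024), with exons that overlap far-5. These 3 genes passed with any 1 library left out. Cuticle collagens took 8 of the 15 largest falls. They were col-183 (−3.39), col-93 (−3.09), col-159 (−2.55), col-98 (−2.54), col-160 (−2.51), col-20 (−2.17), col-124 (−2.11) and col-92 (−2.11), of which col-183 and col-92 passed in all leave-out fits and the others lost their calls without DR replicate 2, col-160, col-20 and col-124 also without AL replicate 2. Col-159 and col-160 overlap each other and col-124 overlaps qns-1, so their separate values are uncertain. The lipase-like gene lips-11 (−2.54 ± 0.58, edgeR adjusted p up to 0.149 with 1 library left out), the shunt enzyme gene acdh-1, the saposin-like gene spp-17 (−2.21 ± 0.34) and WBGene00016875 (−2.15 ± 0.27), an identifier that the annotation used here does not place, complete the list. WBGene00016875 passed in all leave-out fits, and the other 3 lost their calls without DR replicate 2, AL replicate 1 or AL replicate 2.

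Of the 10 genes with the highest levels that passed, the yolk genes vit-4 and vit-3 changed most (−1.53 and −1.64) and are described below, and the other 8 changed by 0.73 or less on the log2 scale. The elongation factor gene eef-1A.2 had 1337, 1373 and 1388 CPM on DR and 1102, 909.7 and 1012 CPM on AL (0.44 ± 0.12, edgeR adjusted p = 0.0407). The protein disulfide isomerase gene pdi-2 (0.39 ± 0.11), R02F2.1 (0.37 ± 0.10) and Y17G7B.20 (0.39 ± 0.11) rose as well, while the cyclophilin gene cyn-7 (−0.67 ± 0.12), the RNA-binding protein gene cey-2 (−0.73 ± 0.13), the oocyte regulator puf-5 (−0.59 ± 0.16) and the RNA helicase gene cgh-1 (−0.61 ± 0.17) fell. Cey-2, puf-5 and cgh-1 are germ line transcripts. None of these 8 genes passed without DR replicate 2 or without AL replicate 2.

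Some markers of the germ line and of egg production fell on DR. Of 37 germ line and oocyte markers 9 fell (24.3%, against 8.3% of all genes tested), and 35 had a negative log2 fold change, with a median of −0.39 against 0.03 for all genes. They included oma-2, needed for oocyte maturation, at 356, 297 and 256 CPM on DR and 548, 513 and 407 CPM on AL (−0.69 ± 0.15, edgeR adjusted p = 0.021), the translational regulator puf-11 (−0.67 ± 0.14) and the P granule gene pgl-3 (−0.61 ± 0.18), whose groups overlapped. The summed level of the 37 markers was 12110, 10620 and 9974 CPM on DR and 15890, 14510 and 11440 CPM on AL, with DR replicate 1 above AL replicate 3. All 37 were tested, and no marker was at 0 in all 6 libraries. Of 17 eggshell markers 7 fell (41.2%) and all 17 were negative (median −0.55), among them cpg-3, for an eggshell proteoglycan, the sperm receptor gene egg-1 and perm-1, for the permeability barrier of the egg. Perm-1 had 45.2, 36.6 and 39.0 CPM on DR and 64.9, 68.4 and 56.3 CPM on AL (−0.65 ± 0.11, edgeR adjusted p = 0.0107). The eggshell sum was 8377, 6898 and 6017 CPM on DR and 12160, 10680 and 8033 CPM on AL, so that the highest DR library lay above AL replicate 3. The number of markers that fell moved with the libraries. Of the germ line list 31 fell without AL replicate 3, 19 without DR replicate 1, 2 without DR replicate 3, 1 without AL replicate 1, 1 without AL replicate 2 and 0 without DR replicate 2, where edgeR was the test, and 27 were under an unadjusted p of 0.05 with all libraries (19 passed in DESeq2). Of the eggshell list 16, 11 and 2 fell without AL replicate 3, DR replicate 1 and DR replicate 3, and 0 without any other library, where 14 were under an unadjusted p of 0.05 and 12 passed in DESeq2 with all libraries. With offsets for exon length 26 germ line and 13 eggshell markers fell.

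Of the 6 yolk protein genes, transcribed in the intestine for uptake by oocytes, 3 fell (50.0%, against 8.3% of all genes tested). Vit-3 had 936, 587.5 and 446 CPM on DR and 2672, 2155 and 1291 CPM on AL (−1.64 ± 0.34, edgeR adjusted p = 0.0229), vit-4 fell alike (−1.53 ± 0.34) and vit-1 by 1.13 ± 0.28. The groups did not overlap for these 3. Vit-5 (−0.86 ± 0.29, edgeR adjusted p = 0.0744), vit-2 (−0.37 ± 0.25) and vit-6 (−0.32 ± 0.27), the most abundant at 4507 to 8464 CPM on DR and 5568 to 10260 CPM on AL, did not pass, and their groups overlapped. The 6 genes summed to 19430, 14460 and 10750 CPM on DR and 29890, 24150 and 15510 CPM on AL, and DR replicate 1 lay above AL replicate 3. Vit-3, vit-4 and vit-5 are similar copies that can share reads. Of the 6 genes 5 fell without AL replicate 3, 4 without DR replicate 1 and 2 without DR replicate 3. Without AL replicate 1, AL replicate 2 or DR replicate 2 the edgeR count was 0 (4 of 6 were under an unadjusted p of 0.05 and 3 passed in DESeq2 with all libraries).

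**Figure D3:**
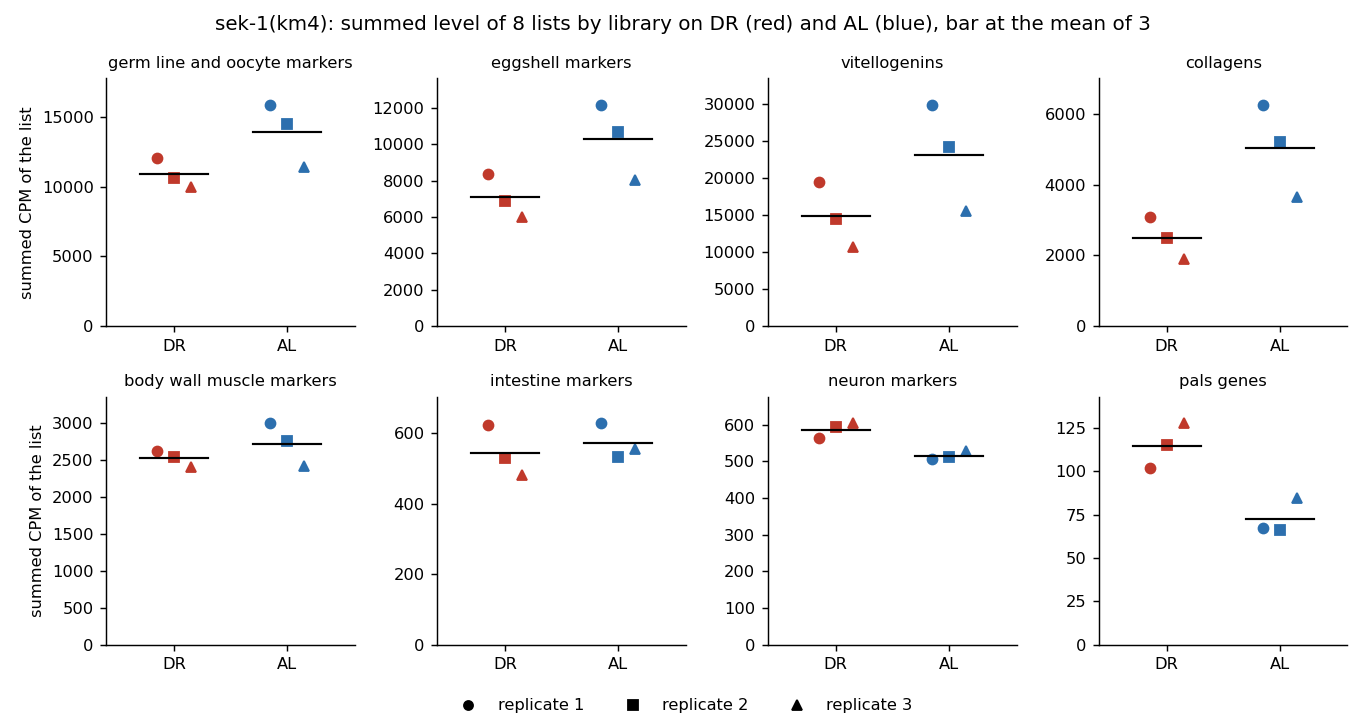
Summed TMM-scaled CPM of 8 gene lists (y axes, from 0) in each sek-1(km4) library on DR (red, left) and AL (blue, right), with 1 symbol per replicate and a bar at the mean of 3 libraries. Collagens (1900 to 3092 CPM on DR, 3665 to 6266 CPM on AL) and pals genes (101.7 to 127.7 CPM on DR, 66.0 to 84.7 CPM on AL) do not overlap between diets, and replicate 3 is the lowest on both diets for germ line, eggshell, yolk and collagen sums.

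Markers of other tissues are read against the 15.4% of all genes that passed. The share was 21.4% for neurons, 4.55% for the epidermis and 0.0% for the intestine, and muscle and pharynx are given by their counts. Among body wall muscle markers 6 of 30 fell and 3 rose (median −0.05). The falls included the troponin genes unc-27 (21.2, 17.1 and 13.99 CPM on DR and 51.5, 44.6 and 27.3 CPM on AL, −1.23 ± 0.25, edgeR adjusted p = 0.0199) and tnt-2 (−1.32 ± 0.30), the calponin-like gene clik-1 (−1.06 ± 0.27) and the myosin light chain gene mlc-1 (−0.84 ± 0.19). Of 28 neuron markers tested 6 rose (median 0.17), with syd-2, a scaffold of presynaptic zones, at 48.0, 48.0 and 49.1 CPM on DR and 33.1, 31.8 and 29.8 CPM on AL (0.62 ± 0.09, edgeR adjusted p = 0.00611). The calcium channel subunit genes egl-19 (0.55 ± 0.15) and unc-2 (0.41 ± 0.10) and the synaptic gene ric-19 (0.66 ± 0.18) rose with it. The pharyngeal myosin gene myo-2 (0.56 ± 0.14) was 1 of 2 that rose of 19 pharynx markers, and ajm-1, for an apical junction protein, was the 1 that rose of 22 epidermis markers (0.53 ± 0.10). Of 21 intestine markers 0 passed in edgeR or in limma voom (5 under an unadjusted p of 0.05, 3 in DESeq2), with summed levels of 482 to 623.5 CPM on DR and 534 to 627.4 CPM on AL. Of the sperm transcripts most were under the filter on both diets, with 5 of 49 markers above the filter, 1 at 0 in all 6 libraries and sums of 19.1 to 20.8 CPM on DR and 17.1 to 18.6 CPM on AL. Each gene with values here lost its call without DR replicate 2, and each but syd-2 also without AL replicate 2. Without DR replicate 2 the muscle and neuron lists had 0 calls by edgeR (14 and 12 members were under an unadjusted p of 0.05 with all libraries). With offsets for exon length 3 neuron markers rose and 1 fell (median 0.09), and 2 body wall muscle markers rose and 9 fell.

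The propionate shunt breaks down propionyl-CoA without vitamin B12, and 4 of its 5 genes fell on DR, with a list median of −0.68. Acdh-1, the acyl-CoA dehydrogenase that opens the shunt (chromosome I, 6497436 to 6499560), had 17.1, 13.5 and 3.99 CPM on DR and 63.2, 72.8 and 50.7 CPM on AL (−2.41 ± 0.49, edgeR adjusted p = 0.0337, and up to 0.124 with 1 library left out). Hphd-1, for the dehydrogenase that removes 3-hydroxypropionate, had 9.59, 10.46 and 9.20 CPM on DR and 22.7, 24.4 and 19.8 CPM on AL (−1.19 ± 0.12, edgeR adjusted p = 0.0024) and passed in all leave-out fits. Hach-1, a hydrolase gene (−0.68 ± 0.11), and ech-6, an enoyl-CoA hydratase gene (−0.48 ± 0.10), fell, while alh-8, for the last enzyme, stood at 314 to 333 CPM on DR and 242.5 to 388 CPM on AL (0.04 ± 0.16, edgeR adjusted p = 0.863). The number of shunt genes that fell was 1 without DR replicate 2, AL replicate 1 or AL replicate 2, and 3 or 4 without any of the others. In the canonical route through vitamin B12, mce-1 (−0.45 ± 0.11) and mmaa-1 (−0.33 ± 0.08) fell of 6 genes, and the carboxylase genes pcca-1 (0.32 ± 0.11) and pccb-1 (0.31 ± 0.11) did not pass.

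Genes of methionine, cysteine and folate metabolism moved apart, with 3 of 16 lower and 2 higher (31.2% passed, against 15.4% of all genes tested). Cth-1, which encodes a cystathionine gamma-lyase that makes cysteine (chromosome V, 16100680 to 16102750), had 4.25, 3.95 and 3.50 CPM on DR and 16.98, 17.65 and 15.8 CPM on AL (−2.101 ± 0.14, edgeR adjusted p = 0.000341). The paralog cth-2 had 29.3, 21.4 and 17.6 CPM on DR and 54.7, 54.5 and 43.2 CPM on AL (−1.15 ± 0.18, edgeR adjusted p = 0.00794). The folate transporter gene folt-2 had 0.522, 0.285 and 0.0614 CPM on DR, the last under the limit of 3 counts, and 3.92, 4.67 and 3.51 CPM on AL (−3.67 ± 0.40, edgeR adjusted p = 0.00263). In each of the 3 the highest DR library was below the lowest AL library. The S-adenosylmethionine synthetase gene sams-1 rose to 60.2, 65.0 and 51.9 CPM on DR, against 35.2, 40.3 and 45.8 CPM on AL (0.55 ± 0.12, edgeR adjusted p = 0.0208). Cth-1 and folt-2 passed with any 1 library left out, cth-2 lost its call without DR replicate 2 and sams-1 also without AL replicate 1 or 2.

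In fat metabolism, 4 of 28 fatty acid oxidation genes rose and 3 fell (median 0.06). Among the rises, beside acs-2, were the enoyl-CoA hydratase gene ech-9, at 7.87, 3.42 and 3.56 CPM on DR and 0.588, 0.589 and 1.35 CPM on AL (2.59 ± 0.44, edgeR adjusted p = 0.0113, lost without AL replicate 1 or 2), and hacd-1, for a 3-hydroxyacyl-CoA dehydrogenase (0.72 ± 0.13). Among the falls was the peroxisomal acyl-CoA oxidase gene acox-1.4 (−1.52 ± 0.39). In fatty acid synthesis and desaturation 2 of 21 rose. Fat-3, the delta-6 desaturase gene at the start of polyunsaturated fatty acid synthesis, had 211, 176 and 195.7 CPM on DR and 112.8, 99.0 and 117.7 CPM on AL (0.82 ± 0.11, edgeR adjusted p = 0.00452), passing in all leave-out fits, and the delta-5 desaturase gene fat-4 rose by 0.35 ± 0.10. Of 8 fatty acid and retinol binding protein genes far-4 (3.37, 5.86 and 8.099 CPM on DR and 0.706, 1.05 and 1.78 CPM on AL, 2.296 ± 0.39) and far-7 rose and far-3 fell, while far-2, the most abundant at 762 to 793 CPM on DR and 806 to 985 CPM on AL, did not pass (−0.15 ± 0.12). The lipid binding protein gene lbp-9 fell (−0.66 ± 0.10, edgeR adjusted p = 0.00712), 1 of 8 of its list to pass. Of 7 lysosomal lipase genes lipl-7 rose (0.53 ± 0.15). Hacd-1, acox-1.4, fat-4, far-4, far-7, lbp-9 and lipl-7 lost their calls without DR replicate 2, and all of these but far-7 and lbp-9 also without AL replicate 2.

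Among carbohydrate enzymes, of 19 glycolysis genes 6 fell and 1 rose (median −0.27), with pgk-1, for phosphoglycerate kinase, at 72.8, 61.3 and 60.8 CPM on DR and 113.4, 99.6 and 86.2 CPM on AL (−0.62 ± 0.12, edgeR adjusted p = 0.015) and the enolase gene enol-1 (−0.58 ± 0.15). The aldolase gene aldo-1 went the other way, at 45.3, 56.9 and 69.0 CPM on DR and 33.1, 33.4 and 41.2 CPM on AL (0.67 ± 0.15, edgeR adjusted p = 0.0237). Of 16 genes of gluconeogenesis, the glyoxylate cycle, trehalose and glycogen 4 rose and 3 fell. The share that passed was 43.8% here and 36.8% for glycolysis, against 15.4% of all genes tested. Icl-1, whose product lets worms turn fat into sugar, rose (433, 344 and 301.5 CPM on DR and 271, 217 and 176 CPM on AL, 0.70 ± 0.18, edgeR adjusted p = 0.0315), as did the trehalase gene tre-5 (1.16 ± 0.30), and the gluconeogenic fbp-1 (−0.59 ± 0.13) and the glycogen synthase gene gsy-1 (−0.64 ± 0.18, groups overlapping) fell. With edgeR the glycolysis count was 0 without DR replicate 2, AL replicate 1 or AL replicate 2, 1 without DR replicate 3, and 10 and 12 without DR replicate 1 and AL replicate 3. The germ line sum given above averaged lower on DR, and its part in these falls was not tested.

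Beside cpr-2, 1 of the other 7 cathepsin B-like genes passed, cpr-6, which fell (130, 88.5 and 67.1 CPM on DR and 296.6, 235.3 and 175.6 CPM on AL, −1.31 ± 0.28, edgeR adjusted p = 0.0266, lost without DR replicate 2, AL replicate 1 or AL replicate 2). Of the other cathepsin-type proteases tag-196 (0.65 ± 0.10) and cpz-2 (0.54 ± 0.12) rose and cpz-1 fell (−0.63 ± 0.17). The aspartyl protease genes asp-13 (20.2, 13.35 and 8.099 CPM on DR and 56.5, 56.5 and 38.9 CPM on AL, −1.85 ± 0.32, edgeR adjusted p = 0.018) and asp-4 (−0.80 ± 0.15) fell, 2 of 10 tested. Of 11 aquaporin genes 4 rose. After aqp-1 these were aqp-7 (33.3, 39.9 and 36.1 CPM on DR and 15.7, 16.52 and 21.4 CPM on AL, 1.03 ± 0.13, edgeR adjusted p = 0.00441), aqp-8 (0.61 ± 0.09) and aqp-2 (0.50 ± 0.12), and at least 2 of the 4, aqp-1 and aqp-7, passed in every leave-out fit. All other genes in these sentences lost their calls without DR replicate 2, and all of those but aqp-8 also without AL replicate 2.

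Heme and iron genes were among the lists with the largest share of members that passed, 6 of 12 (50.0%, against 15.4% of all genes tested), with 4 higher, 2 lower and a median of 0.73. Hrg-1, which imports heme from endosomes and lysosomes (chromosome X, 4008057 to 4016221), had 11.84, 11.3 and 11.84 CPM on DR and 4.08, 3.45 and 4.95 CPM on AL (1.49 ± 0.17, edgeR adjusted p = 0.00276), and passed in all leave-out fits. Hrg-7 had 52, 28.9 and 18.4 CPM on DR and 7.84, 4.92 and 8.75 CPM on AL (2.21 ± 0.43, edgeR adjusted p = 0.0262). Mrp-5, the exporter of heme from the intestine, rose (248, 224 and 196.3 CPM on DR and 143, 126 and 131 CPM on AL, 0.74 ± 0.11, edgeR adjusted p = 0.00751), and so did smf-3, for an intestinal importer of iron (1.32 ± 0.28). Hrg-10 (−0.69) and the ferritin gene ftn-1 (−0.44), named after their values were seen to complete the count, fell. Hrg-7, mrp-5 and smf-3 lost their calls without DR replicate 2 or AL replicate 2. The number of these genes that passed was 1 without DR replicate 2 or AL replicate 2, 2 without AL replicate 1, and 5 or 6 without any of the others.

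Of 9 components of the p38 pathway 4 were higher on DR (44.4%, where 15.4% of all genes tested passed), with the others not passing and a median of 0.38. With offsets for exon length 3 members of the list were higher. Tir-1, for the adaptor at the top of the pathway, had 294, 302 and 275 CPM on DR and 150.4, 149.6 and 189 CPM on AL (0.83 ± 0.12, edgeR adjusted p = 0.00624). Vhp-1, for a phosphatase that turns MAP kinases off, had 128, 137 and 125 CPM on DR and 75.8, 82.9 and 94.3 CPM on AL (0.62 ± 0.10, edgeR adjusted p = 0.00902). The kinase genes pmk-3 (0.43 ± 0.10) and nsy-1 (0.29 ± 0.08, edgeR adjusted p = 0.045) rose. Nsy-1 lost its call with any 1 library left out and in DESeq2 (adjusted p = 0.0932). In the same list pmk-1 (0.38 ± 0.13, edgeR adjusted p = 0.0677) did not pass, and the transcription factor genes atf-7 (−0.06 ± 0.09) and skn-1 (0.21 ± 0.09) did not either. Of these genes 5 passed without AL replicate 3, 3 without DR replicate 1, 2 without AL replicate 1 or DR replicate 3, 1 without AL replicate 2, and 0 by edgeR without DR replicate 2 (with all libraries 7 were under an unadjusted p of 0.05 and 3 passed in DESeq2).

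Of 26 p38-dependent effector genes 15 were under the filter on low counts, and of the 11 tested 5 fell and 1 rose. Their summed level was 98.03, 76.4 and 45.1 CPM on DR and 69.2, 55.2 and 59.3 CPM on AL, and the groups overlapped. Most of it came from members that did not pass, led by the lectin gene clec-60 at 66.85, 45.75 and 18.6 CPM on DR and 29.6, 19.8 and 24.2 CPM on AL, named after its values were seen. The lysozyme gene lys-2 had 0.642, 0.529 and 0.920 CPM on DR and 1.84, 1.89 and 1.73 CPM on AL (−1.41 ± 0.29, edgeR adjusted p = 0.0162). R03G8.6 (−1.38 ± 0.28) and the transporter gene catp-3 (−1.82 ± 0.50) were among the other falls, and K08D8.4, a CUB-like domain gene, rose to 0.682, 0.773 and 0.675 CPM on DR, against 0.157, 0.252 and 0.337 CPM on AL (1.52 ± 0.40, edgeR adjusted p = 0.0351). In catp-3 the value of DR replicate 3 was under the limit of 3 counts. Without DR replicate 2, AL replicate 1 or AL replicate 2 edgeR called 0 of the effectors (with all libraries 7 were under an unadjusted p of 0.05 and 5 passed in DESeq2). Where 15.4% of all genes tested passed, the share was 54.5% for these effectors. It was 17.5% for C-type lectins, 16.7% for lysozymes and 8.7% for saposin-like genes. Of 80 C-type lectin genes 10 fell and 4 rose, with clec-218 (3.89, 3.87 and 3.37 CPM on DR and 8.27, 10.4 and 11.97 CPM on AL, −1.45 ± 0.18, edgeR adjusted p = 0.00419) lower and clec-31 (1.73 ± 0.34) higher. Of 12 lysozyme genes lys-1 fell (20.6, 12.1 and 9.63 CPM on DR and 30.6, 31.3 and 25.01 CPM on AL, −1.03 ± 0.25) beside lys-2, and of 23 saposin-like genes spp-17 and spp-1 (−0.85 ± 0.14) fell. Clec-218 passed with any 1 library left out, and clec-31, lys-1, spp-17 and spp-1 lost their calls without DR replicate 2.

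Of 16 antimicrobial peptide genes of the epidermis 5 fell (31.2%, where 15.4% of all genes tested passed) and 12 were negative, with a median of −0.55. Cnc-7 had 3.29, 5.09 and 6.26 CPM on DR and 15.02, 11.94 and 13.1 CPM on AL (−1.47 ± 0.22, edgeR adjusted p = 0.00751), and cnc-2 (−1.29 ± 0.26), cnc-4 (−1.56 ± 0.38) and nlp-33 (−1.16 ± 0.30) fell with it. Nlp-33 passed in 1 of 6 leave-out fits and not in DESeq2 (adjusted p = 0.0583). Of 29 pals genes, a family known for its part in the response to intracellular pathogens, 10 rose (34.5%) and 27 were positive (median 0.82). Examples were pals-17 (4.98, 6.35 and 7.42 CPM on DR and 2.47, 2.40 and 3.32 CPM on AL, 1.19 ± 0.22, edgeR adjusted p = 0.0133), pals-12 (1.67 ± 0.31) and pals-4 (1.07 ± 0.21). The pals count was 16 without AL replicate 3, 9 without DR replicate 1, 7 without DR replicate 3, 2 without AL replicate 1 and 0 by edgeR without AL replicate 2 or DR replicate 2 (17 were under an unadjusted p of 0.05 and 12 passed in DESeq2 with all libraries). Of the epidermal peptides 1 fell without AL replicate 1 or AL replicate 2, 0 without DR replicate 2 (8 under an unadjusted p of 0.05 and 5 in DESeq2 with all libraries), and 3 to 5 without any of the others.

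Collagens of the cuticle held the largest number of falls among the 62 lists described. Of 120 collagen genes tested 39 fell and 1 rose, 99 were negative, and the median log2 fold change was −0.63. Col-183 (chromosome X, 13466643 to 13467764) had 1.85, 0.773 and 0.798 CPM on DR and 18.2, 10.51 and 7.98 CPM on AL (−3.39 ± 0.42, edgeR adjusted p = 0.00548). Col-98 had 7.87, 5.45 and 4.17 CPM on DR and 45.1, 36.99 and 20.97 CPM on AL (−2.54 ± 0.34, edgeR adjusted p = 0.00835). The summed level of all collagen genes was 3092, 2497 and 1900 CPM on DR and 6266, 5218 and 3665 CPM on AL, with no overlap. The number that fell was 5 without DR replicate 2, 10 without AL replicate 2, 17 without AL replicate 1 and 31 to 45 without any of the others, and 36 with offsets for exon length. Of 27 cuticlin genes 5 rose and 2 fell, the falls being cut-3 (−1.47 ± 0.28) and cut-2 (22.8, 15.6 and 19.1 CPM on DR and 42.8, 36.8 and 31.4 CPM on AL, −0.95 ± 0.16, edgeR adjusted p = 0.00935). Of 26 astacin metalloprotease genes 5 fell, among them nas-3 (−1.56 ± 0.26) and nas-11 (−0.75 ± 0.15), and of 64 hedgehog-related genes 7 fell and 1 rose, with grd-14 (−1.52 ± 0.29) and grd-5 (−1.39 ± 0.29) as examples. Each of these 6 genes lost its call without DR replicate 2. Where 15.4% of all genes tested passed, the share was higher for collagens, cuticlins and astacins and lower for hedgehog-related genes. The median log2 fold change was 0.28 for cuticlins, −0.015 for astacins and −0.075 for hedgehog-related genes, against 0.03 for all genes.

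**Figure D4:**
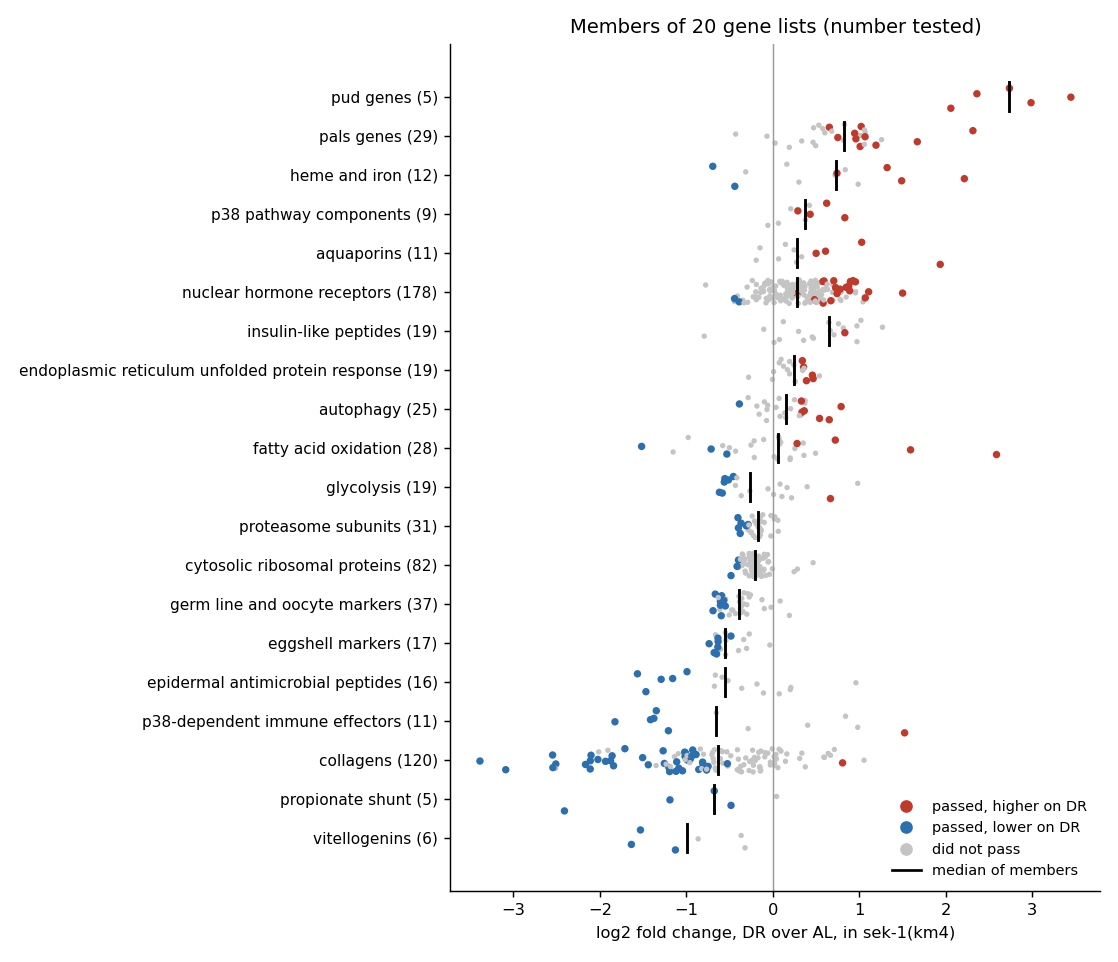
Log2 fold change of DR over AL in sek-1(km4) (x axis) for every tested member of 20 gene lists (rows, with the number tested), coloured where the gene passed as higher (red) or lower (blue) and grey where it did not, with a black line at the list median. Pals genes (median 0.82) and collagens (median −0.63) lie on opposite sides of 0, and 99 of 120 collagens and all 17 eggshell markers are negative.

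The detoxification families are read against the 15.4% of all genes that passed. The share was 17.1% for glutathione S-transferases, and the other families are given by their counts. Of 50 cytochrome P450 genes 8 fell and 2 rose. Cyp-35B1 had 0.963, 0.488 and 0.245 CPM on DR and 4.35, 4.37 and 4.76 CPM on AL (−2.91 ± 0.35, edgeR adjusted p = 0.00337), and cyp-37B1 had 1.73, 2.48 and 1.595 CPM on DR and 0.157, 0.420 and 0.577 CPM on AL (2.36 ± 0.41, edgeR adjusted p = 0.0113). Of 35 glutathione S-transferase genes 5 fell and 1 rose, led by gst-10 (4.94, 3.54 and 3.01 CPM on DR and 13.1, 13.1 and 13.9 CPM on AL, −1.79 ± 0.19, edgeR adjusted p = 0.0024). Of 50 UDP-glucuronosyltransferase genes 7 rose and 6 fell, with ugt-53 (−2.51 ± 0.32), ugt-41 (−1.75 ± 0.21) and ugt-22 (−1.75 ± 0.21) against ugt-4 (1.26 ± 0.26). Cyp-35B1, gst-10, ugt-53, ugt-41 and ugt-22 passed in all leave-out fits, and cyp-37B1 and ugt-4 lost their calls without DR replicate 2. Of the oxidant defence genes the mitochondrial superoxide dismutase gene sod-3 (−1.05 ± 0.24) and the peroxiredoxin gene prdx-3 (−0.50 ± 0.09) fell, 2 of 17, and neither passed without DR replicate 2.

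Genes of protein synthesis and turnover are also read against 15.4%. The share that passed was 31.2% for tRNA synthetases, 26.3% for stress response genes of the endoplasmic reticulum and 19.4% for the proteasome. It was 9.09% for mitochondrial stress, 5.26% for heat shock and 3.66% for ribosomal proteins. Among autophagy genes 6 of 25 rose and 1 fell (median 0.15). The cargo receptor gene sqst-1 had 272, 300.3 and 287.5 CPM on DR and 169, 151 and 177 CPM on AL (0.79 ± 0.10, edgeR adjusted p = 0.00434), epg-2 (0.65 ± 0.13) and the lipid transfer gene atg-2 (0.54 ± 0.11) rose, and atg-3, for a conjugating enzyme, fell (−0.39 ± 0.09). In the endoplasmic reticulum 5 of 19 stress response genes rose (median 0.24), among them the transcription factor genes xbp-1 (222, 234.9 and 222 CPM on DR and 162, 157 and 172 CPM on AL, 0.47 ± 0.09, edgeR adjusted p = 0.0146) and atf-6 (0.36 ± 0.10, DESeq2 adjusted p = 0.0601). With offsets for exon length 2 genes of this list rose. In mitochondria the chaperonin gene hsp-60 fell (208, 159 and 139 CPM on DR and 387, 318 and 217.5 CPM on AL, −0.87 ± 0.22, edgeR adjusted p = 0.0356), 1 of 11 of its list. Proteasome subunits had 6 of 31 lower with 27 negative (median −0.17), ribosomal proteins 3 of 82 lower with 79 negative (median −0.21), and tRNA synthetases 7 of 32 lower and 3 higher (median −0.19). Pas-4 (−0.40 ± 0.09), pbs-6 (−0.40 ± 0.10), rpl-7A (−0.48 ± 0.14) and nars-2 (−0.70 ± 0.15) are examples. The part of the germ line sum in these falls was not tested. The small heat shock gene hsp-12.6 rose (1.97, 6.67 and 4.91 CPM on DR and 1.18, 1.01 and 1.44 CPM on AL, 1.90 ± 0.42, edgeR adjusted p = 0.0216), 1 of 19 heat shock genes. With 1 library left out the edgeR count of proteasome subunits was 15 without AL replicate 3, 2 without DR replicate 1, 1 without DR replicate 3 and 0 without any other (12 under an unadjusted p of 0.05 and 6 in DESeq2 with all libraries). For ribosomal proteins 15 passed in DESeq2, 9 were lower with offsets for exon length, 13 passed without AL replicate 3, 1 without DR replicate 1 and 0 without any other library (25 under an unadjusted p of 0.05 with all libraries). For tRNA synthetases it was 18 without AL replicate 3, 11 without DR replicate 1, 2 without DR replicate 3 and 0 without any other (15 under an unadjusted p of 0.05 and 10 in DESeq2 with all libraries). Each gene named here lost its call without DR replicate 2.

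Of 178 nuclear hormone receptor genes, transcription factors that respond to lipids and metabolites, 19 rose and 2 fell, where 15.4% of all genes passed, and 139 were positive (median 0.28). Nhr-21 had 12.4, 14.7 and 12.2 CPM on DR and 5.45, 6.01 and 7.31 CPM on AL (1.07 ± 0.16, edgeR adjusted p = 0.00751), nhr-18 rose by 1.11 ± 0.18, nhr-193 by 1.501 ± 0.37 and nhr-128 by 0.96 ± 0.24. The count of receptors that passed was 36 without AL replicate 3, 18 without DR replicate 1, 6 without DR replicate 3, 1 without AL replicate 1 or AL replicate 2 and 0 by edgeR without DR replicate 2 (51 were under an unadjusted p of 0.05 with all libraries). Among 30 regulators known for longevity under restriction, of which 16.7% passed, crtc-1, for a coactivator of CREB (22.7, 22.8 and 22.1 CPM on DR and 15.5, 15.7 and 13.99 CPM on AL, 0.58 ± 0.10, edgeR adjusted p = 0.0113), the catalytic AMP-activated kinase subunit gene aak-2 (0.39 ± 0.11) and pha-4, for a forkhead transcription factor (8.31, 8.43 and 6.63 CPM on DR and 4.94, 4.33 and 5.43 CPM on AL, 0.67 ± 0.17, edgeR adjusted p = 0.0321), rose, 3 of the 4 that did, and lost their calls without DR replicate 2 or AL replicate 2. Argk-1 was the 1 that fell. Insulin-like peptide genes, of which 5.26% passed, had a median of 0.65 with 17 of 19 positive, and ins-34 (0.83 ± 0.25, edgeR adjusted p = 0.0489) was the 1 that rose. All 5 pud genes tested rose. F15E11.1 had 2.29, 3.01 and 2.82 CPM on DR and 0.627, 0.546 and 0.769 CPM on AL (2.06 ± 0.26, edgeR adjusted p = 0.00431), and pud-1.1 and pud-1.2, whose sequences are almost the same so that their separate values are uncertain, stood at 2.85 to 4.72 CPM on DR and 0.252 to 0.769 CPM on AL. In pud-4 every AL library was under the limit of 3 counts, and no fold is given. With 1 library left out all 5 passed, except without DR replicate 2, where 3 did.

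The remaining lists are read against the 15.4% of all genes that passed. The share was 40.0% for flavin-containing monooxygenases and 17.8% for translation factors. For DAF-16 targets known to fall and to rise under low insulin signalling it was 33.3% and 22.7%. For the others in this paragraph it was 0.0% to 13.9%. Of 30 neuropeptide genes 0 passed in edgeR or limma voom (5 under an unadjusted p of 0.05, 1 in DESeq2), although 29 were positive (median 0.41), and of 16 embryonic fate regulators 2 rose (median 0.58). Histone genes had 3 of 80 higher and 1 lower, and DNA replication genes 5 of 36 lower. Of 45 translation factors 3 rose and 5 fell, of 30 ribosome biogenesis genes 1 rose, of 43 nuclear-encoded genes of oxidative phosphorylation 1 rose and 2 fell, and of 21 vacuolar ATPase genes 1 fell. Of 22 DAF-16 targets known to rise under low insulin signalling 3 rose and 2 fell, and of 6 known to fall 2 fell. Flavin-containing monooxygenases and the markers of coelomocytes, gonad sheath and uterus each had 1 higher and 1 lower, of 5 and 16. Without DR replicate 2 the only call left among all of these was 1 fall among the DAF-16 targets.

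The response was last set beside that of wild type N2, whose DR and AL libraries are not shared with the mutant. N2_AL replicate 3 stands apart from the other N2 libraries in the series, with a mitochondrial share of 1.18% (rRNA set aside) where replicates 1 and 2 of N2_AL had 0.307% and 0.476%, so values are given with and without it. In 1 fit of all 12 libraries the 2161 genes that passed in sek-1(km4) had the same sign in N2 in 68.8% of cases, against 54.5% of all genes. Their log2 fold changes correlated between the genotypes at r = 0.576, and those of all 14611 genes at r = 0.118. Without N2_AL replicate 3 the sign was the same in 67.1% and 57.8%, and the correlations were 0.701 and 0.382. Of the 2161 genes, 101 (4.67%) also passed in N2 by edgeR in the fit of 12 libraries. Without N2_AL replicate 3 it was 202 (9.35%). Genes are not independent replicates, and these values are descriptions. The genes that rose in the mutant were positive in N2 in 78.5% of cases (80.6% without N2_AL replicate 3), and those that fell were negative in 60.5% (55.5%). Cpr-2 (4.18 in N2), aqp-1 (2.22), argk-1 (−3.71), cth-1 (−2.995) and folt-2 (−3.18) had the same direction in both strains.

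**Figure D5:**
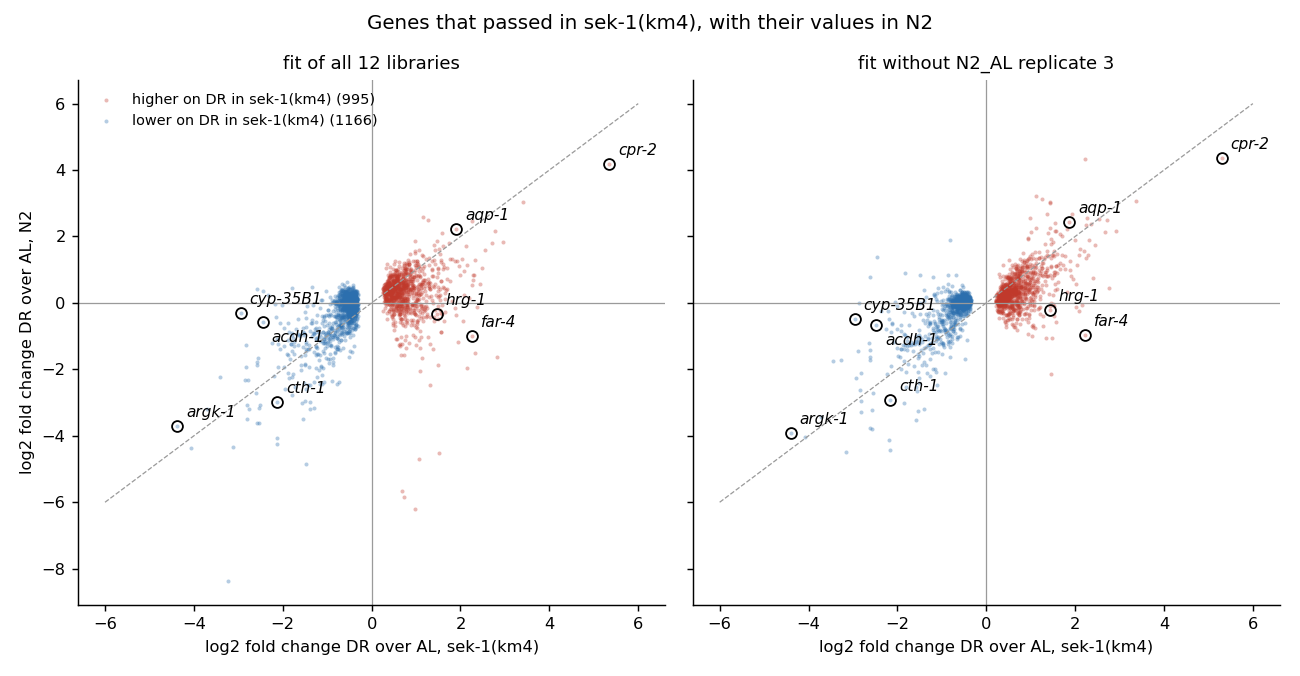
Log2 fold change of DR over AL in sek-1(km4) (x axis) and in N2 (y axis) for the 2161 genes that passed in sek-1(km4), from 1 fit of all 12 libraries (left) and from the fit without N2_AL replicate 3 (right), with red for genes higher and blue for genes lower on DR in the mutant and a dashed line of equal values. Over these genes the correlation is 0.576 on the left and 0.701 on the right, and over all genes tested it is 0.118 and 0.382. Cpr-2, aqp-1, argk-1 and cth-1 are far from 0 on both axes. Hrg-1, far-4, cyp-35B1 and acdh-1 are far from 0 on the x axis and nearer to 0 or opposite on the y axis.

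Whether the diet effect differed between the genotypes was tested as an interaction over all 12 libraries. Of 14611 genes 0 (0.0%) passed in edgeR, 1302 (8.91%) were under an unadjusted p of 0.05, DESeq2 called 50 (0.342%), and 13 (0.0876%) passed in edgeR without N2_AL replicate 3. The named genes with the smallest unadjusted p, picked after the values were seen, were hrg-1, K08D8.4, far-4 and cyp-35B1. Hrg-1 had a log2 fold change on DR of 1.46 in sek-1(km4) and −0.33 in N2 (interaction 1.80 ± 0.29, edgeR adjusted p = 0.19, and 0.0432 without N2_AL replicate 3). K08D8.4 had 1.49 in sek-1(km4) and −1.86 in N2 (3.36 ± 0.55, edgeR adjusted p = 0.19, and 0.0105 without that library). For far-4 the values were 2.27 in sek-1(km4) and −0.985 in N2 (3.25 ± 0.61, edgeR adjusted p = 0.458, and 0.0995), and for cyp-35B1 −2.945 in sek-1(km4) and −0.29 in N2 (−2.655 ± 0.52, edgeR adjusted p = 0.458, and 0.0432). In the fits without any other 1 library, hrg-1, K08D8.4, far-4 and cyp-35B1 did not pass, with edgeR adjusted p of 0.281 to 0.844. Acdh-1 was at −2.45 in sek-1(km4) and −0.58 in N2 (−1.87 ± 0.57), fat-3 at 0.80 and −0.04 (0.84 ± 0.23) and perm-1 at −0.68 and 0.39 (−1.06 ± 0.33), each with an edgeR adjusted p of 0.531. In DESeq2 hrg-1 (adjusted p = 7.82e-05), K08D8.4 (0.00174), far-4 (0.0102) and cyp-35B1 (0.00164) passed. Acdh-1, fat-3 and perm-1 did not. WBGene00016875 (DESeq2 adjusted p = 0.0159), clec-60 (0.0179), cey-2 (0.0437) and Y53F4B.45 (0.0437) were among the others that DESeq2 called. WBGene00016875 also passed in edgeR with a block for replicate number (adjusted p = 0.0181). With no filter on low counts K08D8.4 (edgeR adjusted p = 0.00713), far-4 (0.0156) and cyp-35B1 (0.0156) passed. Germ line markers had a median of −0.39 in the mutant and 0.21 in N2 (−0.04 without N2_AL replicate 3), and eggshell markers −0.55 and 0.22 (0.00 without it), from separate fits. Whether these medians differ between the strains was not tested.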

How the data were processed

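Whole adult C. elegans were measured by poly(A) RNA-seq. The deposited values are whole-number read counts per gene and library, not normalised, and the authors obtained them with featureCounts (Subread), as the submitters' processing notes record. Which aligner, build, annotation, strand setting and versions they used is not given in the sources used here. All 12 count columns name a sample by its labels, and 0 columns were left out. Names, locations and exon lengths come from the Ensembl release 115 annotation of WBcel235, which was matched by gene identifier.

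From the counts, DR was tested against AL in the 6 sek-1(km4) libraries with edgeR 4.0.16 in R 4.3.3 (filterByExpr with a minimum count of 10, TMM, robust quasi-likelihood fit with a mean per group, Benjamini-Hochberg adjustment over all 14056 genes). A gene passed at an adjusted p under 0.05. SE is |log2 fold change| over the root of the F statistic. The interaction used all 12 libraries and 14611 genes. The functions were tested on simulated data. P-values measure the spread between the libraries of a group, and the labels do not say that these came from separate cultures.

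Named genes are sek-1, the 15 largest log2 fold changes each way among genes that passed, averaged 5 CPM or more and had DR and AL apart, the 10 with the highest mean CPM, and up to 4 members that passed per list (all members of lists of at most 12). The comparison, the 62 gene lists and the rules were chosen with earlier results of these data known. Lists are described by counts and medians. The main fit did not pair libraries by replicate number. The deviations of same-numbered libraries correlated at 0.336, 0.0293 and 0.358, and those of the other pairs at −0.404 to 0.144. Whether the numbers mark pairs was not tested. Alternatives were RLE scaling, other filters, DESeq2 1.42.0, limma 3.58.1 voom, a replicate block, rRNA left out, each library left out, a shared fit of 12 libraries, an adjusted p under 0.01 and, added after seeing the data, both replicates 3 left out and exon-length offsets (loess per library).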

Additional observations from a re-analysis of the deposited data

How the results depend on the processing

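Another scaling, another filter at a minimum count of 30, DESeq2, limma voom and leaving out rRNA kept the counts of genes that passed within 1.5 times of those given. With 1 library left out, the genes that passed numbered 70 to 3940 (37 to 1675 higher, 33 to 2265 lower, 57 to 707 changed at least 2-fold), and without both replicates 3 they numbered 4085 (2014 higher, 2071 lower, 695 at least 2-fold). A shared fit of 12 libraries called 66 (25 higher, 41 lower, 60 at least 2-fold), and an adjusted p under 0.01 left 230 (129 higher, 101 lower, 104 at least 2-fold). Exon-length offsets gave 1993 lower. The main fit did not pair these libraries by replicate number. With a replicate block 4812 genes passed (2324 higher, 2488 lower, 625 at least 2-fold), and DR replicates 1 and 3, but not DR replicate 2, correlated best with the AL library of their own number.

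For the interaction, no filter on low counts gave 6 genes (3 positive, 3 negative), DESeq2 50 (28 positive, 22 negative), the replicate block 1 (1 negative), and leaving out 1 library 0 to 13 (0 to 9 positive, 0 to 4 negative), with 13 without N2_AL replicate 3. The log2 fold change of alh-8 (0.04, not passed) ran from −0.141 to 0.232 with 1 library left out, and was −0.093 without both replicates 3 and −0.016 with exon-length offsets. The cause of these shifts was not tested. No named gene that passed changed sign where a setting gave it a value, which was for all 203 except at a minimum count of 30 (193), in DESeq2 (198) and with exon-length offsets (202). For genes whose groups do not overlap, leaving out 1 library can hardly reverse the sign, so this adds no support. With 3 libraries a group and whole animals, small changes and transcripts near the limit of 3 counts are the least certain.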
